A study of Sus scrofa with 4 samples.

Results

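The net change of the transcriptome over adipocyte differentiation was read by setting day 8 (D8) against day 0 (D0) in cultured subcutaneous preadipocytes of the pig. A gene was compared when it reached an FPKM of at least 1 at D0 or at D8, and a circRNA was compared when it had at least 10 back-splice junction reads at D0 or at D8. This left 9781 of 16192 mRNAs, 751 of 5615 lncRNAs and 1920 of 8623 circRNAs, that is 12452 of the 31567 features listed. FPKM gives the fragments of a gene relative to its length and to the size of the library, and SRPBM gives the reads across a back-splice junction relative to the mapped reads.

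The cells came from the subcutaneous fat of 3 Erhualian piglets, a Chinese breed, that were 5 days old and labelled male. Cells of D0 were confluent preadipocytes before any hormone was given. Cells of D8 had received dexamethasone, 3-isobutyl-1-methylxanthine and insulin for 2 days, then insulin alone, then growth medium. For each stage the RNA of the 3 animals was mixed in equal parts, depleted of rRNA and made into 1 strand-specific library, and further libraries stood at D2 and D4. No stage was replicated, so stage and library cannot be told apart, no test between stages was possible, and "rose" and "fell" below mean a ratio of at least 2. The culture was a stromal fraction collected by digestion and centrifugation, not sorted cells, and in bulk RNA a change in the share of cells of a type cannot be told apart from a change in RNA per cell.

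Fat cells form when fibroblast-like precursors leave the cell cycle, lose their contractile cytoskeleton and switch on a program led by the nuclear receptor PPARG and by C/EBP factors. Dexamethasone acts through the glucocorticoid receptor, isobutylmethylxanthine raises cAMP by blocking phosphodiesterases, and insulin drives glucose uptake and lipid synthesis. The mature cell makes fatty acids from glucose or takes them up from lipoproteins, esterifies them to triglyceride, and keeps that triglyceride in droplets coated with perilipins and CIDE proteins.

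The fragments behind FPKM, worked out from the values themselves, were 75387428 at D0 and 54128151 at D8, and 54987801 and 74358922 at D2 and D4. Read numbers could be given for 10513 of the 10532 genes compared. Ratios below are log2((D8 + 0.1)/(D0 + 0.1)) in FPKM. The 95% intervals were computed from reads without the added 0.1, so for genes near 0 at D0 the interval can lie above the ratio, and they cover counting error only. The median log2 ratio of the compared mRNAs was -0.19, with 6682 of the 9781 below 0, and lists of genes are set beside it. Counts of rises and falls in a list stand beside 4.22% of all mRNAs that rose and 4.75% that fell. Protein-coding genes held 78.8% of the fragments at D0 and 73.1% at D8, and a single signal recognition particle RNA held 12.4% and 16.5%.

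Between D0 and D8, slightly more mRNAs fell than rose at the settings used here, but the rises were larger. Of the 9781 mRNAs, 413 (4.22%) were at least 2-fold higher at D8 and 465 (4.75%) at least 2-fold lower, together 8.98%. At 8-fold the order turned, with 94 mRNAs higher and 7 lower, and 42 were at least 16-fold higher against 2 lower. Setting the median of all mRNAs to 0 gave 508 higher and 293 lower, and upper-quartile scaling gave 492 and 311, so the excess of falling mRNAs depends on the scale. Rises and falls were found at every level, and among the 622 mRNAs at FPKM of at least 100 there were 35 rises and 21 falls.

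**Figure D1:**
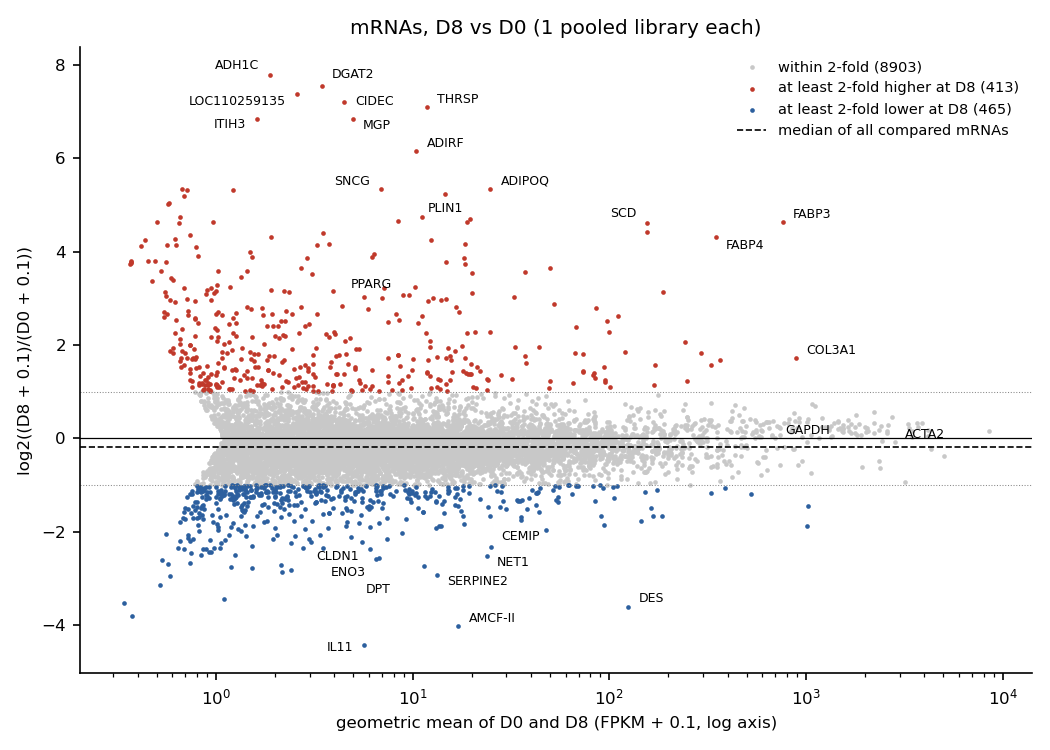
Each point is 1 of 9781 mRNAs, with the geometric mean of D0 and D8 in FPKM + 0.1 on a log x axis and the log2 ratio of D8 to D0 on the y axis. Dotted lines mark 2-fold and the dashed line the median of -0.19. The points spread upwards to 7.78 (ADH1C) and downwards only to -4.43 (IL11).

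A net rise at D8 was often the remainder of a larger one. Among the 413 mRNAs that rose, the highest value of the 4 libraries was at D8 for 191, at D4 for 186 and at D2 for 36. Among the 465 that fell, the lowest value was at D8 for 181, at D2 for 145 and at D4 for 139.

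The 10 largest rises among mRNAs at FPKM of at least 10 in either library held genes of triglyceride storage, the fat hormone adiponectin and several secreted or small proteins. ADH1C (chr8:121089355-121105010), an alcohol dehydrogenase that also oxidises retinol, was at 0.0264 FPKM at D0 and climbed through 2.82 and 19.2 to 27.7 at D8. Its log2 ratio was 7.78, and because only 3 reads were counted at D0 against 2256 at D8, its interval ran from 8.48 to 12.31. DGAT2 (chr9:10032163-10066082), the enzyme that adds the last fatty acid to triglyceride, went from 0.152 FPKM at D0 to 10.1, 57.7 and 47.1 at D2, D4 and D8, a log2 ratio of 7.55 (interval 7.59 to 9.05). LOC110259135, a protein-coding gene on an unplaced scaffold, had a like profile with 0.0997, 6.7, 41.7 and 33 FPKM.

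CIDEC (chr13:66141836-66149801), a droplet protein that lets droplets fuse, did not follow this course. It stood at 0.271 FPKM at D0, 0.78 at D2 and 5.01 at D4, and reached 54.6 at D8 (log2 ratio 7.20, interval 7.14 to 8.21). Counted in FPKM, though not on the log2 scale, most of its rise came after D4. ADIRF, a small adipogenesis-associated protein, showed the same late course with 1.13, 0.887, 10.8 and 88.3 FPKM. Its neighbour SNCG, gamma-synuclein, which fat cells also express, went from 0.976 to 43.8 FPKM (log2 ratio 5.35). The pair lies side by side on the plus strand, at chr14:87916353-87922111 for SNCG and chr14:87928721-87930935 for ADIRF.

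THRSP, a nuclear protein tied to lipogenesis, was at 0.908, 55, 182 and 138 FPKM over the 4 stages, and ADIPOQ, adiponectin, at 3.8, 29.6, 179 and 158. Both were highest at D4. MGP, an inhibitor of matrix calcification, rose at every stage from 0.361 to 53.1 FPKM (log2 ratio 6.85), and ITIH3, which links hyaluronan to proteins, from 0.0508 to 17.2 (6.84).

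The 10 largest falls included secreted signals, intermediate-filament and junction genes, and matrix regulators. IL11 (chr6:59540482-59544909), an interleukin-6 family cytokine, dropped from 26.1 FPKM at D0 to 1.26 at D2 and stayed low, at 0.679 and 1.11 (log2 ratio -4.43, interval -4.83 to -4.28). AMCF-II (chr8:70008225-70010360), a neutrophil-attracting chemokine, fell later, with 69 and 53.4 FPKM at D0 and D2 and 6.3 and 4.12 at D4 and D8 (-4.03). DES (chr15:121428539-121435426), the muscle intermediate filament desmin, went from 436 to 37.7 and 4.05 FPKM and then back up to 35.7 (-3.61).

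Some falls ran through all 4 stages and others were partly undone by D8. NET1, an activator of RhoA, was at 57, 48.8, 20.6 and 9.86 FPKM. CEMIP, a hyaluronan-degrading protein, declined likewise from 56.1 to 11.1, and DPT, the matrix protein dermatopontin, from 16.2 to 2.66. By contrast, CLDN1, a tight-junction claudin, was lowest at D4 (0.707 FPKM) and stood at 2.55 at D8 against 13.7 at D0. ENO3, the muscle enolase, was lowest at D2 (0.735) and stood at 2.55 against 15.9. SERPINE2, an inhibitor of thrombin and plasminogen activators, fell from 36.4 to 4.72 FPKM.

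**Figure D2:**
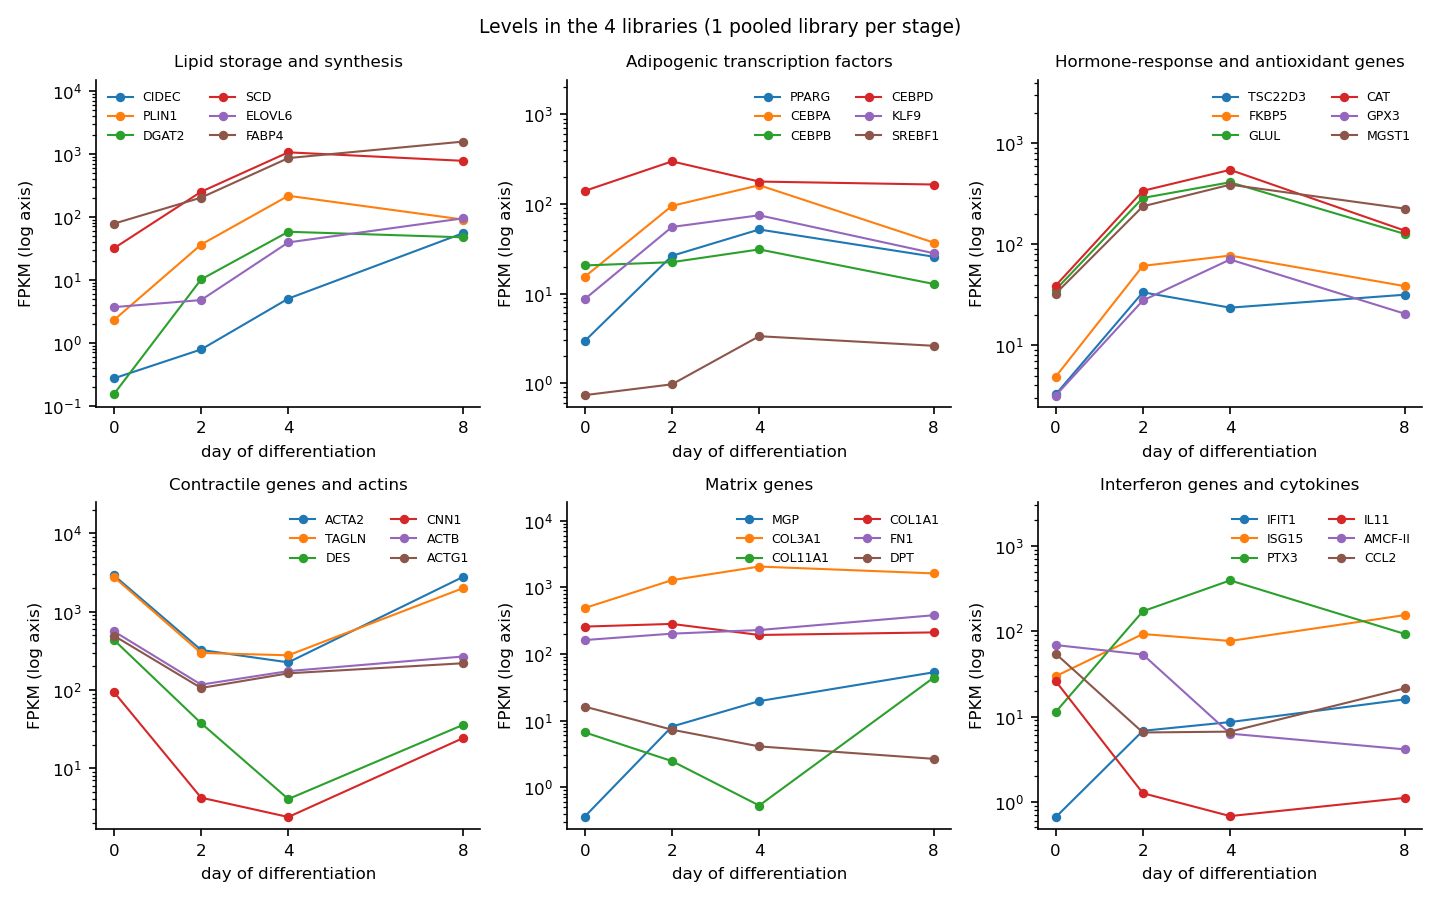
FPKM on a log y axis against the day of differentiation, 1 pooled library per stage, for 36 genes in 6 groups. Genes of lipid storage stayed high at D8, the factors PPARG and CEBPA were highest at D4, and ACTA2 and TAGLN dipped at D2 and D4 and were close to their D0 level again at D8.

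Of the adipogenic transcription factors, 5 of the 21 compared rose, 3 of them at FPKM of at least 5, and none fell, with a median of 0.23. PPARG (chr13:68301566-68433951) stood at 2.95, 26.4, 51.9 and 25.8 FPKM (log2 ratio 3.08, interval 3.00 to 3.25). CEBPA, its partner in the late program, stood at 15.4, 95.3, 162 and 37.1 FPKM (1.27). Both were above D0 in all 3 later libraries and were at D8 below their D4 level. KLF9, a Krüppel-like factor that glucocorticoids induce, rose from 8.67 to 28.2 FPKM, and SREBF1, which drives lipogenic enzymes, from 0.734 to 2.61. The early factors did not move by 2-fold, with 140 and 165 FPKM at D0 and D8 for CEBPD (0.23) and 20.6 and 12.8 for CEBPB (-0.69). Nor did EBF1, at 4.51 and 7.66 FPKM (0.75), which had been at 35.2 at D4. Among 18 factors that hold back adipogenesis, DDIT3, a C/EBP-related stress factor, rose from 62 to 144 FPKM (1.22) and the others stayed within 2-fold.

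Adipocyte markers rose in 17 of 22 cases and lipid droplet and lipolysis genes in 9 of 19, and no member of either list fell. The coat proteins and lipases rose by different amounts. PLIN1, the perilipin that guards the droplet from lipases, was at 2.28, 36.1, 215 and 90.3 FPKM (log2 ratio 5.25, interval 5.13 to 5.49), and CIDEA, a droplet protein related to CIDEC, at 2.75, 9.74, 40.2 and 54.3 (4.25). PLIN2, the perilipin that many cells carry, was at 94.9 FPKM at D0 and 66.7 at D8 (-0.51), so the order of the 2 perilipins turned: PLIN1 was the lower at D0 and the higher at D8. LIPE, hormone-sensitive lipase, rose from 0.808 to 10.3 FPKM (3.52) and PNPLA2, which starts the breakdown of triglyceride, from 2.7 to 7.14 (1.37, interval 1.11 to 1.70). LEP, the hormone leptin, stayed under FPKM 1 at D0 and D8.

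Enzymes of fatty acid and triglyceride synthesis rose in 13 of 29 cases and fell in 3, with a median of 0.49. SCD, the desaturase that makes oleate, was at 31.5, 249, 1053 and 772 FPKM (log2 ratio 4.61, interval 4.59 to 4.64). ELOVL6, which lengthens palmitate to stearate, was at 3.67, 4.75, 39.1 and 94.1 FPKM (4.64), the highest at D8. FASN, which builds palmitate, rose from 3.04 to 17.7 FPKM (2.50) and ACACA, which supplies its malonyl-CoA, from 7.15 to 24.1 (1.74). The 3 that fell were ACSL4, which activates arachidonate, at 50.2 and 17.4 FPKM (-1.52), the desaturase FADS2 at 29 and 12.9 (-1.16) and the related FADS3 at 13.9 and 6.44 (-1.10). These 3 were named after their values were seen, and when the median of all mRNAs was set to 0 only 1 of them stayed past 2-fold.

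The genes of fatty acid uptake and transport rose in 8 of 16 cases and fell in 2. FABP3, a fatty acid binding protein best known from muscle, was the most abundant of them, with 153, 638, 3254 and 3805 FPKM (log2 ratio 4.64, interval 4.60 to 4.68). FABP4, the binding protein of fat cells, stood at 77.5, 201, 853 and 1557 FPKM (4.33), and FABP5 at 63.1, 141, 589 and 555 (3.13). APOE, the lipoprotein ligand, rose from 33.3 to 719 FPKM (4.43), CD36, the fatty acid transporter, from 3.9 to 54.7 (3.78) and LPL, which frees fatty acids from lipoproteins, from 19.2 to 142 (2.88). The summed FPKM of the 22 genes of this list that the files hold went from 480 to 6960, or from 0.117% to 1.69% of the FPKM of all mRNAs.

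Of 11 genes that supply glycerol, 5 rose and none fell. GPD1, which makes glycerol-3-phosphate, was at 0.787, 5.08, 15.4 and 15.9 FPKM (log2 ratio 4.17), AQP3, a glycerol channel, went from 0.327 to 8.47 (4.33), and PC, pyruvate carboxylase, from 2.17 to 15.4 (2.77). PCK1, the glyceroneogenic carboxykinase, was back at 1.06 FPKM at D8 against 1.4 at D0 (-0.36), after 9.39 at D4. Fatty acid oxidation was mixed, with 4 of 26 genes higher, among them the thiolases ACAA1 (8.59 to 41.4 FPKM, 2.26) and ACAA2 (12.3 to 32, 1.38). CPT1A, the gate for fatty acids into mitochondria, was the 1 member that fell, through 16.7, 10.5, 6.67 and 4.97 FPKM (-1.73, interval -1.84 to -1.66).

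Cholesterol synthesis did not follow fatty acid synthesis. Its 21 genes had a median of -0.63, with 1 rise and 2 falls, of which 1 remained when the median of all mRNAs was set to 0. Below 0 were 14 members, a count near the share of all mRNAs (6682 of 9781). MSMO1, a sterol demethylase, was at 68.6 and 34.5 FPKM (-0.99) and FDPS, which makes farnesyl diphosphate, at 94.7 and 48 (-0.98), both within 2-fold, whereas HMGCS1, an early enzyme of the pathway, was at 35.4 and 38 (0.10).

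In the insulin list 5 of 22 genes rose, or 3 with 1 FPKM added. SLC2A4, the insulin-regulated glucose transporter, was at 0.0924, 1.53, 8.8 and 7.58 FPKM (log2 ratio 5.32, interval 5.67 to 7.14). INSR, the insulin receptor, was at 1.11 and 1.39 FPKM at D0 and D8 (0.31), although it had reached 5.68 at D4, and IRS1 was at 1.39 and 1.55 (0.15). The insulin-like growth factor list had a median of 0.00, with IGF1 at 18.8 and 14.6 FPKM (-0.36).

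Of 18 genes that glucocorticoids induce, 9 rose and 3 fell at D8, with a median of 0.85. By then the cells had been without dexamethasone since D2. TSC22D3, a mediator of the anti-inflammatory action of glucocorticoids, was at 3.26, 33.5, 23.6 and 31.7 FPKM (log2 ratio 3.24). FKBP5, which binds the receptor, was at 4.88, 61.2, 77.4 and 38.6 (2.96), and GLUL, glutamine synthetase, at 35.5, 288, 412 and 127 (1.83). With the median of all mRNAs set to 0, 1 of the 3 falls remained past 2-fold. The cAMP and adrenergic list had a median of -0.39 over 17 genes, with 2 rises and 3 falls. PRKAR2B, a regulatory subunit of protein kinase A, rose from 1.58 to 7.83 FPKM (2.24) and ADCY7, an adenylate cyclase, fell from 7.45 to 3.02 (-1.28).

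Antioxidant enzymes rose in 6 of 28 cases and fell in 2, with a median of 0.12 and 12 members below 0. CAT, catalase, was at 39, 339, 547 and 137 FPKM (log2 ratio 1.81), GPX3, the secreted glutathione peroxidase, at 3.18, 27.8, 70.8 and 20.6 (2.66), and MGST1, a membrane glutathione transferase, at 32.5, 238, 390 and 226 (2.80). All 3 were highest at D4. SOD2 stayed within 2-fold, at 32.2 FPKM at D0 and 35.7 at D8 (0.15). Of the thermogenic list, 8 of 21 genes could be compared and 4 rose. CIDEA and COX7A1, a respiratory subunit at 15.5 and 37.3 FPKM (1.26), were among them, and PPARGC1A and PRDM16, which define brown and beige fat, stayed under FPKM 1 at D0 and D8.

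Contractile and smooth-muscle genes fell in 6 of 28 cases, with a median of -0.66 and 27 members below 0. The most abundant of them were near their starting level at D8. ACTA2, smooth-muscle actin, was at 2907, 324, 225 and 2762 FPKM (log2 ratio -0.07, interval -0.08 to -0.07), and TAGLN, transgelin, at 2767, 297, 277 and 1987 (-0.48). CNN1, calponin, recovered only in part, with 94.3, 4.22, 2.39 and 24.2 FPKM (-1.96), as did FLNC, filamin C, with 34.5, 6.92, 3.69 and 9.63 (-1.83). ITGA7, a laminin-binding integrin subunit, was the 1 member that rose, from 2.23 to 21.7 (3.23).

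The actin cytoskeleton list had 9 falls and 1 rise among 40 genes and a median of -0.55. ZYX, zyxin of focal adhesions, fell from 9.55 to 2.97 FPKM (log2 ratio -1.65). The cytoplasmic actins ACTB, at 561, 117, 174 and 267 FPKM (-1.07), and ACTG1, at 493, 106, 163 and 219 (-1.17), were below D0 in all later libraries, but with the median of all mRNAs set to 0 both came to less than 2-fold and the 9 falls to 3, and with 1 FPKM added the falls came to 5. ARPC2 and ARPC3, subunits of the actin-branching complex, were at 179 and 126 FPKM (-0.50) and at 382 and 353 (-0.12).

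Cell division genes were lower at D8 by less than 2-fold for the most part. Of 61 G2/M genes, 60 were below 0, the median was -0.55, and 3 fell, beside 4.75% of all mRNAs. The 3 were PLK1 (1.29 to 0.465 FPKM), CDC25B (1.11 to 0.453) and CENPA (2.19 to 0.55), named after their values were seen. All 3 were compared only because of their D0 value, and with 1 FPKM added 1 G2/M gene fell. CCNB1, the mitotic cyclin, was at 43.8, 3.09, 11.6 and 25.9 FPKM (log2 ratio -0.76, interval -0.82 to -0.69), and PTTG1, securin, at 50.4, 4.81, 14 and 26.8 (-0.91). TOP2A, topoisomerase II of dividing cells, was at 18.1, 2.75, 13.8 and 13.3 (-0.44), and CCNA2, cyclin A, at 17.7, 2.78, 7.57 and 11.4 (-0.63). These genes were lowest at D2 and higher again at D4 and D8. None of 53 S phase genes moved by 2-fold, and their median of -0.23 was close to that of all mRNAs. CCND1, the G1 cyclin, was at 14.4 and 7.27 FPKM (-0.97).

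Extracellular matrix genes split by kind. Of 21 collagens, 4 rose and none fell, with a median of 0.54, and 7 rose when the median of all mRNAs was set to 0. COL3A1, a fibrillar collagen, was at 491, 1286, 2058 and 1624 FPKM (log2 ratio 1.73, interval 1.72 to 1.74), and COL5A3 at 1.23, 7.42, 37.1 and 11.7 (3.16). COL11A1, a collagen best known from cartilage, had fallen to 0.529 at D4 from 6.65 at D0 and stood at 44.1 at D8 (2.71). COL1A1, the main collagen of fibroblasts, was at 258 and 211 FPKM (-0.29).

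Matrix glycoproteins and proteoglycans moved in both directions, 6 rising and 7 falling of 39. POSTN, periostin, rose from 11.1 to 54.2 FPKM (log2 ratio 2.28), and FN1, fibronectin, from 162 to 382 (1.24). LTBP2, which binds fibrillin, fell from 15.7 to 3.42 FPKM (-2.16). Of 38 crosslinking enzymes and proteases, 11 fell and 3 rose. TIMP1, the metalloprotease inhibitor, was at 179, 111, 97.2 and 49.4 FPKM (-1.85), and MMP13, a collagenase, went up from 0.693 to 6.88 (3.14). LOX and MMP2, which crosslink and cut collagen, were at 56.8 and 64.6 FPKM (0.18) and at 99.3 and 96.8 (-0.04).

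Genes of the precursor state and of WNT and TGF-beta signalling moved both ways, with more falls than rises in each list. Of 19 mesenchymal progenitor markers, 4 fell and 2 rose, with a median of -0.32, and with 1 FPKM added in place of 0.1 there was 1 fall beside the 2 rises. CD248, endosialin, fell from 7.8 to 1.44 FPKM (log2 ratio -2.36). PDGFRA and THY1, which mark preadipocytes, were at 75.8 and 60.8 FPKM (-0.32) and at 105 and 78.8 (-0.42). Of 17 WNT genes, 5 fell and 2 rose, with a median of -0.57. Below 0 were 12 members, again near the share of all mRNAs (6682 of 9781). The falls included the antagonists SFRP2 (273 to 97 FPKM, -1.49), SFRP4 (26.1 to 7.05, -1.88) and DKK3 (64.6 to 22.5, -1.51) and the agonist RSPO1 (5.16 to 1.01, -2.24). FZD4, a WNT receptor, rose from 2.18 to 9.97 FPKM (2.14). Of 25 TGF-beta, activin and BMP genes, 5 fell and 1 rose, with a median of -0.515 and 21 members below 0. The count came to 3 falls when the median of all mRNAs was set to 0, and to 2 falls and no rise with 1 FPKM added or at FPKM of at least 5. ID2 and ID3, targets of BMP signals, fell from 7.92 to 3.07 (-1.34) and from 793 to 345 FPKM (-1.20).

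Interferon-stimulated genes rose in 17 of 30 cases and none fell, with a median of 1.11. With 1 FPKM added 10 rose, and at FPKM of at least 5 there were 11 rises. IFIT1, which binds viral RNA, was at 0.658, 6.8, 8.61 and 15.9 FPKM (log2 ratio 4.40, interval 4.31 to 4.90). ISG15, a ubiquitin-like modifier, was at 29.7, 93, 77.1 and 155 (2.38), and MX1, a GTPase that blocks viruses, at 12.5, 25.4, 32.6 and 36.2 (1.53). All 3 were highest at D8.

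Inflammatory cytokines and chemokines fell in 9 of 22 cases and rose in 3, with a median of -0.91. CXCL8, a neutrophil chemokine, fell from 5.41 to 0.733 FPKM (log2 ratio -2.72), CCL2, which draws monocytes, from 54.7 to 21.4 (-1.35) and IL6 from 5.97 to 2.35 (-1.31). The 3 that rose were PTX3, a pattern-recognition pentraxin, at 11.3, 172, 396 and 93.3 FPKM (3.03), CCL19, a lymphocyte chemokine, at 2.36, 151, 40.6 and 19.8 (3.01), and SAA3, an acute-phase protein named after its value was seen, at 5.87 and 25.1 (2.08). PTX3 and CCL19 were thus well past their peak at D8. Of 18 complement genes, 5 rose and 2 fell, or 2 rose at FPKM of at least 5, with C7, of the membrane attack complex, at 0.656 and 11 FPKM (3.87) and CLU, clusterin, at 331 and 105 (-1.66).

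The calgranulins, which are calcium-binding proteins of neutrophils, macrophages and stressed epithelium, were chosen after their values were seen. S100A8 was at 3.71, 132, 122 and 99.7 FPKM (log2 ratio 4.71), S100A9 at 4.96, 127, 104 and 67.7 (3.74) and S100A12 at 14, 172, 183 and 176 (3.65). They had reached these levels by D2. The 3 genes lie together, from chr4:96209670 to chr4:96238989.

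Of the remaining lists, few members passed 2-fold. Of 59 cytosolic ribosomal proteins, 58 were above 0 with a median of 0.23 and none past 2-fold, 39 nuclear genes of the respiratory chain had a median of 0.03, and 39 genes of the citrate cycle and glycolysis a median of 0.00. GAPDH, a glycolytic enzyme often used as a reference, was at 693, 423, 345 and 692 FPKM (-0.00, interval -0.01 to 0.01), level between D0 and D8 but not in between. None of the 12 reference genes and none of the 22 G1 cyclins and cell cycle inhibitors passed 2-fold. Among 27 genes of ER stress and chaperones 1 rose, among 21 of branched-chain amino acid breakdown 1 rose, and among 11 clock genes and 32 lysosomal genes 1 each fell. Of all mRNAs 4.22% rose and 4.75% fell, so 1 call in a list of this size says little about its members. Immediate early genes moved more, 2 rising and 6 falling of 20 with a median of -0.45, or 4 and 4 when the median of all mRNAs was set to 0. Of 17 alcohol, aldehyde and retinoid enzymes, 6 rose and 2 fell, with ALDH1A1, which makes retinoic acid, at 0.675, 36.9, 34.4 and 13.7 FPKM (log2 ratio 4.15).

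**Figure D3:**
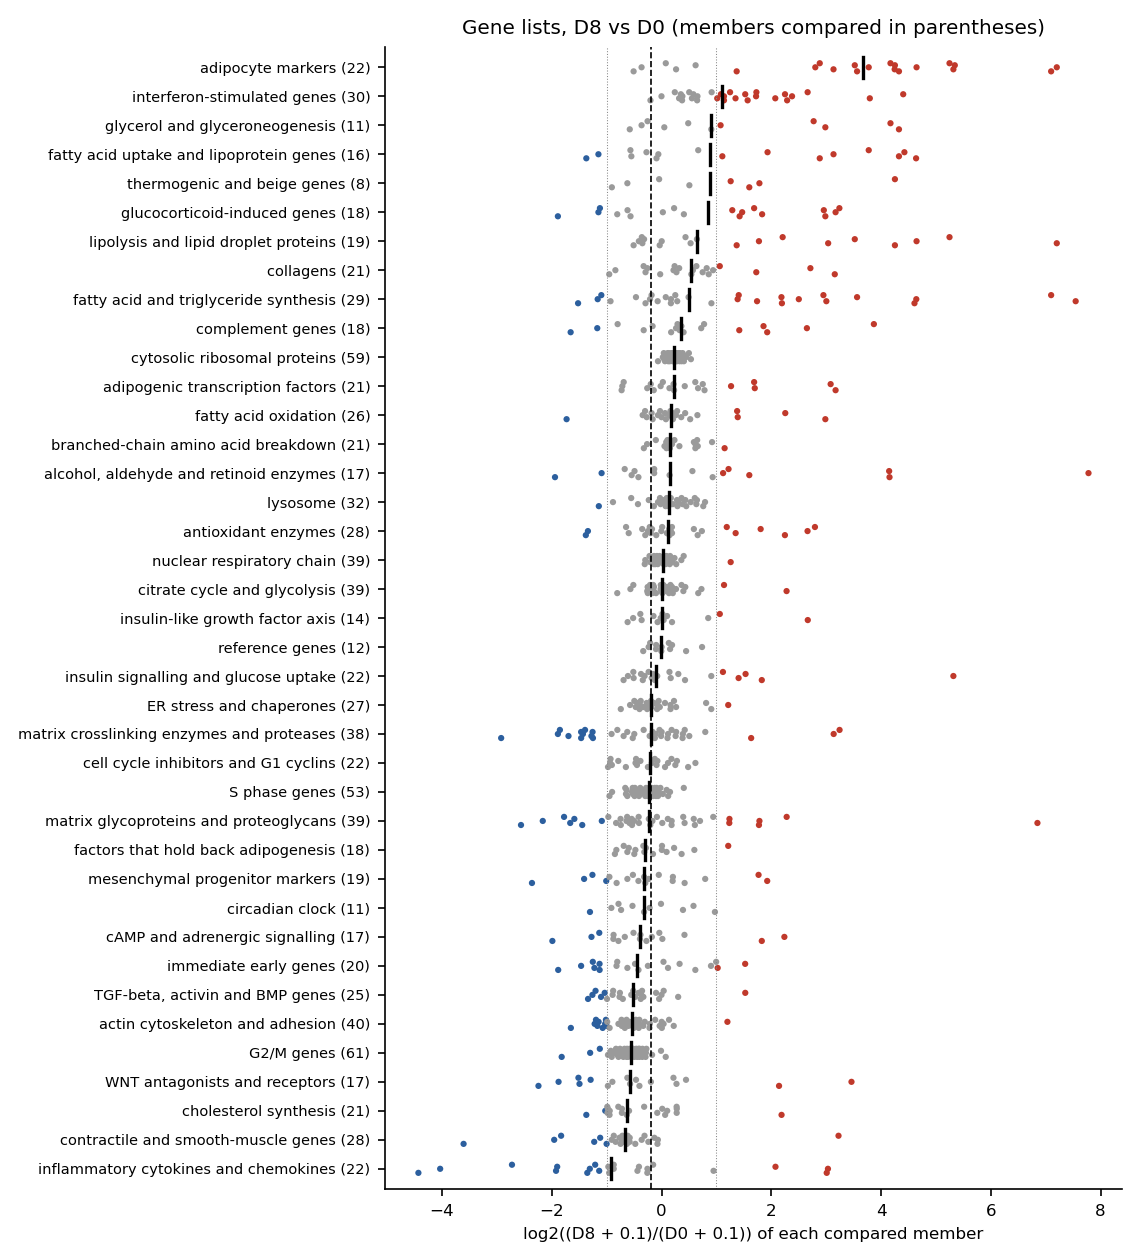
Each row is a list of genes with its number of compared members, each point the log2 ratio of D8 to D0 of 1 member, and each black bar the median of the list. Red and blue points passed 2-fold, and the dashed line is the median of all mRNAs. Of the lists drawn, which leave out cell type markers, adipocyte markers (3.67) and interferon-stimulated genes (1.11) had the highest medians, and inflammatory cytokines (-0.91) and contractile genes (-0.66) the lowest.

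Markers of other cells the culture could hold were looked at beside these lists. Defining endothelial genes (CDH5, VWF, KDR), PTPRC and CSF1R of leukocytes, and EPCAM and CDH1 of epithelium were under FPKM 1 at D0 and D8. Not all endothelial markers were that low, as 3 of the 9 could be compared. Of these 3, 1 was above 0 and 2 below, 1 fell by at least 2-fold, and the median was -0.43. Of the 10 macrophage and leukocyte markers, 6 were under FPKM 1 at D0 and D8. Of the 4 that could be compared, 2 rose and 1 was below 0, with a median of 1.31. The 2 that rose were CD163, a scavenger receptor of macrophages, at 0.27, 1.42, 1.01 and 1.38 FPKM, and AIF1 at 0.221, 0.273, 0.225 and 1.05 (log2 ratio 1.84), both named after their values were seen. Both were compared only because of their D8 value, just over FPKM 1, so their rise and the median follow in part from the filter. The 9 endothelial markers summed to 8.17 FPKM at D0 and 6.83 at D8, the 10 of macrophages and leukocytes to 5.08 and 7.36, the 7 of mural cells to 32.4 and 37.9, the 9 of bone and cartilage to 1.15 and 1.07, and the 6 of glia and neurons to 1.17 and 0.649. The 8 skeletal muscle markers summed to 16.2, 2.89, 2.93 and 25.4 FPKM over the 4 stages. At D0 and D8 the largest share was that of MYL1, a fast myosin light chain (8.67 and 16.8 FPKM, 0.95).

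The 8 epithelial and mesothelial markers summed to 52.5 and 305 FPKM, carried by the keratins KRT5 at 44.4, 107, 180 and 275 (2.63) and KRT8 at 4.46, 8.25, 15.8 and 25.1 (2.47). The 11 fibroblast markers summed to 6180 and 6770. Adipocyte markers went from 303 to 3070 FPKM, 0.0740% and 0.744% of all mRNA. The part of the keratin, calgranulin, macrophage and muscle transcripts in the other results was not tested.

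LncRNAs changed more often than mRNAs, and more of them fell than rose. These are transcripts without a coding frame. Most were at low levels, but the most abundant, LOC106509199, was at 122569 FPKM at D0 and 168911 at D8 (log2 ratio 0.46). Of 751 lncRNAs, 102 (13.6%) rose and 200 (26.6%) fell, together 40.2%, with a median of -0.22. Of 279 annotated lncRNAs, 28 (10%) rose and 29 (10.4%) fell, together 20.4%. Among the lncRNAs assembled by the authors, 43 of 274 intergenic ones (15.7%) rose and 104 (38.0%) fell, together 53.6%, and 31 of 198 antisense ones (15.7%) rose and 67 (33.8%) fell, together 49.5%. At FPKM of at least 5, where 154 lncRNAs and 6094 mRNAs were left, 7 lncRNAs rose and 31 fell, beside 201 and 211 mRNAs. The 2 classes were thus not matched for level. Of mRNAs at FPKM of at least 1 and under 5, 5.75% rose and 6.89% fell. With the median of all mRNAs set to 0, 115 of the 751 rose and 162 fell.

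Of the 6 largest rises among lncRNAs at FPKM of at least 3, 2 lie at lipid genes. LOC102163508 (chr5:16006878-16008530, minus strand) overlaps GPD1 on the opposite strand and was at 0.248, 0.916, 1.99 and 5.4 FPKM (log2 ratio 3.98, interval 3.64 to 5.38), beside 4.17 for GPD1. LOC106510641 (chr6:87950805-87951743) starts 97 bp from FABP3 on the other strand and was at 1.44, 1.68, 4.79 and 6.61 FPKM (2.13), beside 4.64 for FABP3. The libraries were strand-specific, but whether reads were counted by strand is not given in the sources used here, so reads of GPD1 and of the overlapping lncRNA cannot be told apart.

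MSTRG.49742 (chr5:24874032-24878228), lies 2141 bp from SLC16A7, a lactate and pyruvate transporter, on the same strand. It was at 1.78, 9.37, 14.9 and 7.24 FPKM (log2 ratio 1.96), and SLC16A7, chosen after its values were seen, had a ratio of 1.82. MSTRG.15576 (chr1:256060412-256094269) rose from 4.91 to 23.5 FPKM (2.24), and its nearest mRNA, TNC, the matrix protein tenascin C, lies 430031 bp away and fell from 296 to 93.2 FPKM (-1.66). LOC102168178 was at 0.888 and 4.94 FPKM (2.35). LOC110256661 had dipped to 0.375 at D2 from 1.8 at D0 and stood at 5.36 at D8 (1.52).

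Among the 6 largest falls, the highest D0 level was that of MSTRG.65804 (chr6:145422196-145427430), which lies antisense to C6H1orf141. It was at 112, 20.4, 8.72 and 9.91 FPKM (log2 ratio -3.48, interval -3.75 to -3.26), while C6H1orf141 was listed at 0 at D0 and at 0.329 at D8. MSTRG.144770 (chr17:35319036-35348531) fell from 3.05 FPKM, 54 reads, to 1 read at D8 (-4.14, interval -10.61 to -2.74). It is antisense to LOC110257420, which rose from 6.14 to 24.2 FPKM (1.96) and was chosen after its values were seen. MSTRG.20789, LOC102159165 and MSTRG.16468 were at or near 0 at D2 and D4 and had 9, 11 and 5 reads at D8 against 141, 131 and 54 at D0. MSTRG.15859 fell from 6.28 to 0.972 FPKM (-2.57).

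**Figure D4:**
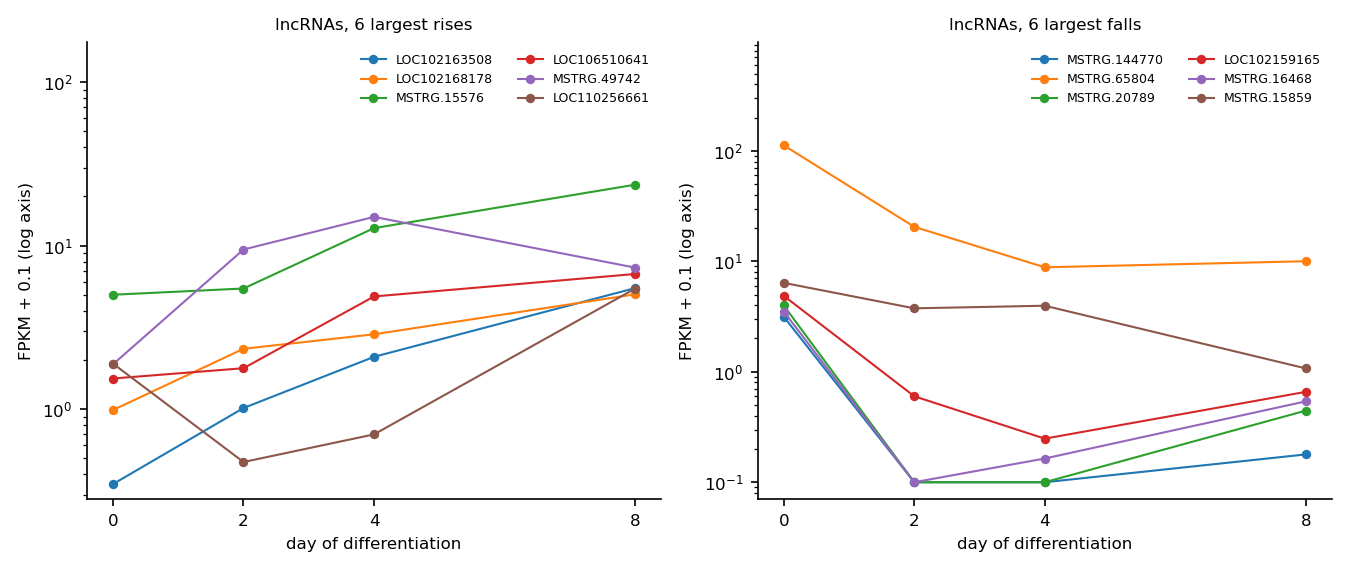
FPKM + 0.1 on a log y axis against the day of differentiation for the 6 lncRNAs with the largest rise (left) and the 6 with the largest fall (right) from D0 to D8, 1 pooled library per stage. MSTRG.65804 had the highest D0 level of the falling ones (112 FPKM), and LOC110256661 was the rising one that first dipped.

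Of 6 lncRNAs that the study took to qPCR, 4 passed 2-fold at D8. They were assembled from these reads and carry only a working name, so the primers, 5′ to 3′, are what identifies them, and the 4 pairs are shown for that reason.
MSTRG.131380 forward: acaccaggcttcaaacggaa
MSTRG.131380 reverse: gcactagctgtcaaggctga
MSTRG.146410 forward: tgttctcgtgatggtgcgaa
MSTRG.146410 reverse: attgcccaagctcatcggaa
MSTRG.62128 forward: tcttgcccggtggtactttc
MSTRG.62128 reverse: acgtagtccagttgctgctc
MSTRG.42239 forward: ggttctgccggacctttctt
MSTRG.42239 reverse: ggcccacgtcctacttcaaa

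MSTRG.131380 (chr15:33326717-33328324) was at 15, 1.92, 2.74 and 3.56 FPKM (log2 ratio -2.05, interval -2.53 to -1.66) and MSTRG.146410 (chr17:54491694-54533892) at 52, 3.52, 3.03 and 12.7 (-2.03, interval -2.25 to -1.83). Both were lowest at D2 or D4. MSTRG.62128 (chr6:79810276-79811573) was at 0.364, 3.06, 4.01 and 1.19 FPKM (1.47) and MSTRG.42239 (chr4:70928839-70933680) at 0.396, 3.04, 3.37 and 1.21 (1.40), so both were back near FPKM 1 at D8. The other pair, MSTRG.28 and LOC100513133, came to 0.54 and 0.52. MSTRG.42239 begins at the start of YTHDF3 on the opposite strand, and MSTRG.62128 lies 35 bp from USP48.

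CircRNAs are closed loops made when a downstream splice site joins an upstream one, and only reads across that junction count them. Of those compared, more were lower than higher at D8. Of 1920 circRNAs, 373 (19.4%) were at least 2-fold higher and 822 (42.8%) at least 2-fold lower, together 62.2%, with a median log2 ratio, here with 5 SRPBM added, of -0.67. Junction reads were few, 53207 at D0 and 37480 at D8, and 1 read was worth 6.42 SRPBM at D0 and 8.4 at D8. The filter was set in reads, so a circRNA could pass it at a lower SRPBM at D0 than at D8, which favours falls. Before the filter, 3938 circRNAs were listed above 0 at D0 and 3960 at D8. How much of the excess of lower circRNAs follows from the filter was not tested.

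Many of these calls rest on circRNAs listed at 0. The files hold no value of 1 junction read, and whether a 0 stands for fewer than 2 reads or for a missing value cannot be told apart. Of the 373 higher circRNAs, 191 were listed at 0 at D0, and of the 822 lower ones, 510 at D8. Among the 1219 circRNAs with reads in both libraries, 182 were higher and 312 lower, with a median of -0.31. Of 291 circRNAs with at least 20 reads in at least 3 of the 4 libraries, 27 were listed at 0 in the fourth, 8 of them at D0 and 6 at D8. Among the 1219, a 95% counting interval lay above 0 for 144 and below 0 for 242. Over all 1920 it left out 0 for 1087 (56.6%), if every listed 0 is a true count of 0.

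The circRNA that stood out was ssc_circ_0005779 (chr12:39366927-39391822), within LOC110256043. It had 22, 274, 907 and 785 junction reads at D0, D2, D4 and D8, from 141 SRPBM at D0 to 6595 at D8 (log2 ratio 5.50, interval 4.94 to 6.23), and at D8 it had more junction reads than any other circRNA compared. LOC110256043 itself was at 2.06, 21.7, 41.3 and 57.4 FPKM (4.74), and LOC110256045 next to it, at chr12:39351029-39355689, at 1.58, 6.53, 20.4 and 42.2 (4.66). Both genes were chosen after their values were seen.

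Of the 6 largest rises by the rule, all had 0 reads listed at D0, so no fold is given. The 2 with the most reads were ssc_circ_0005080 of ZEB1, with 0, 123, 94 and 104, and ssc_circ_0006401 of RPSA, with 0, 36, 87 and 52. ssc_circ_0003790 of UBE2Q2 had 38 reads at D8 and was listed at 0 at the 3 other stages. The host mRNAs of these 3 were within 2-fold, at -0.60 for ZEB1, 0.21 for RPSA and -0.09 for UBE2Q2. With reads in both libraries, the next largest rise after ssc_circ_0005779 was ssc_circ_0000844 of ME1, the malic enzyme that supplies NADPH for lipogenesis, with 20, 0, 98 and 125 reads (2.98, interval 2.34 to 3.79), beside 4.23 and 33.4 FPKM for ME1 mRNA (2.95), which was chosen after its values were seen.

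All 6 largest falls were listed at 0 at D8. ssc_circ_0006731 (chr14:100882995-100883147), within ACTA2, had 312 reads at D0 and was listed at 0 at D2, D4 and D8, although ACTA2 mRNA was at 2762 FPKM at D8. The other 5, ssc_circ_0002437 of CCT3 (101, 77, 96 and 0 reads), ssc_circ_0008516 (80, 73, 65 and 0), ssc_circ_0008498 of DIAPH2 (74, 50, 59 and 0), ssc_circ_0005319 of RCBTB2 (70, 29, 71 and 0) and ssc_circ_0001526 of ASXL2 (51, 29, 18 and 0), had reads in the 3 earlier libraries.

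ZEB1, a factor of the mesenchymal state, gave many junction reads. Its 19 circRNAs held 1812, 1195, 893 and 683 reads, and 7 of the 10 compared were lower and 1 higher. Scaled to the libraries, the 19 summed to 11628 SRPBM at D0 and 5738 at D8, with 5 and 9 of them listed at 0. ssc_circ_0005079 (chr10:42063516-42079536), the circRNA with the most reads at D0, had 855, 559, 442 and 285 reads (log2 ratio -1.19, interval -1.39 to -1.0) and ssc_circ_0005074, which ends at the same place, 548, 260, 242 and 191 (-1.13). The 22 circRNAs of SMURF2, a ubiquitin ligase of TGF-beta signalling, summed to 1097 SRPBM at D0 and 277 at D8, or 171 and 33 reads. Of these 22, 6 were listed at 0 at D0 and 19 at D8. Among the 10 compared, 7 were lower and 1 higher, and SMURF2 mRNA was at 20.5 and 11.6 FPKM (-0.82). By contrast, ssc_circ_0005283 of XPO4 (527, 364, 499 and 355 reads, -0.18, interval -0.38 to 0.02) could not be told apart from no change at this depth. ssc_circ_0008427 of GRIPAP1 (434 and 227 reads, -0.55) and ssc_circ_0004941 of ENAH (348 and 189, -0.49) stayed within 2-fold, and ENAH mRNA fell from 69.2 to 25.6 FPKM (-1.43). Over all circRNAs with a compared host gene, the hosts had a median log2 ratio of -0.13 for the higher circRNAs, -0.32 for the lower ones and -0.22 for the rest.

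**Figure D5:**
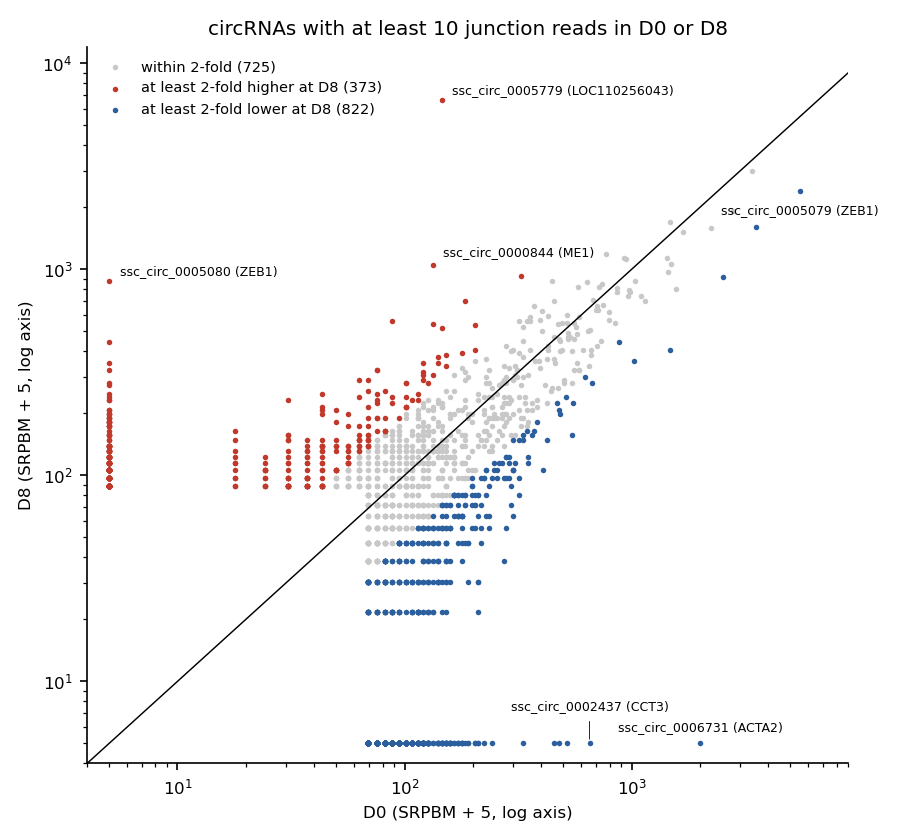
Each point is 1 of 1920 circRNAs, D0 on the x axis and D8 on the y axis, in SRPBM + 5 on log axes, with the line of equal level. The column at the left edge and the row at the bottom are the circRNAs listed at 0 in D0 (191) and in D8 (510). ssc_circ_0005779 lies far above the line and the ZEB1 circRNA ssc_circ_0005079 below it.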

How the data were processed

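Total RNA of 3 piglets was pooled for each stage, and rRNA-depleted, strand-specific libraries were sequenced, 1 per stage. The authors aligned reads to Sscrofa11.1 with HISAT2 (2.0.5 per the labels), assembled lncRNAs and deposited FPKM. For circRNAs the authors used BWA and CIRI with at least 2 junction reads and deposited SRPBM, a signal scaled to the mapped reads of each library, in the same column. The samples' groups were taken from the labels' differentiation stage.

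Gene lengths in whole bases and library totals that turn FPKM into whole fragments were searched (Python 3.11.15, numpy 2.4.6, scipy 1.17.1). Recovered fragments made up 98.9% to 99.1% of the totals. In simulated data of 19314 genes, 96.2% of the recovered genes had all 4 read numbers equal to the simulated ones. The search took the shortest length that fits, so the others can be whole fractions, which would widen intervals, but this was not checked. Of 199 genes changed 4-fold, 100% were called, in simulations with counting error only. SRPBM values were whole junction reads (100%, within 0.05 reads).

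Calls were ratios of at least 2 with a pseudocount of 0.1 FPKM or 5 SRPBM. Intervals were exact (Clopper-Pearson, conditional on the sum of both libraries). With 1 library per stage no p-value was computed. The host gene of a circRNA held both ends on the same strand. Genes were named by rule: the 10 largest rises and 10 largest falls at FPKM of at least 10, up to 4 members per list at FPKM of at least 5 with defining members, the genes taken to qPCR, 6 lncRNAs each way at FPKM of at least 3, and 6 circRNAs each way at 20 reads or more, and exceptions are marked. Some genes that meet this rule are not reported here. The comparison, its lists and the named members were chosen with earlier results of these data known. Chromosomes were assigned through RefSeq annotation of Sscrofa11.1, which matched 20259 of 22944 features by symbol and position.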

Additional observations from a re-analysis of the deposited data

Results flagged for a closer look

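In classes of RNA that no comparison above used, 3 held a larger share of the fragments at D8 than at D0. The signal recognition particle RNA took 16.5% at D8 against 12.4% at D0, pseudogenes 0.0911% against 0.0712%, and transcribed pseudogenes 0.0625% against 0.0576%. The signal recognition particle RNA is a single gene, and its share was 17.1% at D2 and 12.5% at D4, so it was high in the 2 libraries with the fewest fragments.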

How the results depend on the processing

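No paired analysis was possible because each stage had 1 pooled library, and for the same reason no library could be left out of a stage. A pseudocount of 1 FPKM gave 292 higher and 225 lower mRNAs (main 413 and 465), and 45 and 95 lncRNAs (main 102 and 200). FPKM of at least 5 gave 201 higher and 211 lower mRNAs and 7 and 31 lncRNAs. A filter of FPKM of at least 1 in 3 of 4 libraries gave 319 higher and 299 lower mRNAs, and 28 and 63 of 430 lncRNAs. No filter gave 803 and 828 mRNAs and 755 and 898 lncRNAs. Fewer or more features are compared under these filters by construction. Centring on the mRNA median, a shift of 0.19, gave 293 lower mRNAs, and the share of higher among called mRNAs went from 47% to 63.4%. Upper-quartile scaling (shift 0.16) gave 61.3%, and scaling by protein-coding reads (0.11), chosen after seeing the data, 56.2%. For circRNAs, at least 5 reads gave 1267 higher and 1739 lower, at least 20 reads 85 and 214, and reads listed in both libraries, also chosen after seeing the data, 182 and 312. Of 226 named genes, 7 lost and 5 gained a 2-fold call under centring, 4 lost theirs at a pseudocount of 1 and 3 gained one at 0.01. No direction of a called gene turned under the alternatives run. At this depth a counting interval left out 0 for 144 higher and 242 lower circRNAs of the 1219 with reads in both libraries, and differences between animals were not measurable.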

Other observations

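Beyond mRNAs, lncRNAs and circRNAs, the files list short RNAs that reached FPKM 1 at D0 or D8. Of 263 tRNA genes, 104 were at least 2-fold lower and 33 at least 2-fold higher at D8, with a median log2 ratio of -0.65, and as a class they held 0.066% of the fragments at D0 and 0.0421% at D8. Of 75 miRNA genes, 17 were lower and 19 higher, with a median of -0.02. The library protocol is for longer RNA, and many of these genes had few fragments.

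Some genes with large net rises had most of their gain in FPKM after D4, when the cells were in growth medium. TNMD, a membrane protein of tendon that fat also makes, was chosen after its values were seen. It was at 4.27, 10.7 and 12 FPKM at D0, D2 and D4 and at 78.3 at D8 (log2 ratio 4.17).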
